A study of Mus musculus with 18 samples.

Results

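The 9 genes described here encode proteins that hold the cells of the gut lining together. They are the junction scaffolds Tjp1, Tjp3 and Cgn, the junction membrane proteins Ocln, Marveld2, Marveld3 and F11r, and the adhesion proteins Cdh1 and Epcam. They were chosen by name, and all 9 were found among the 33977 genes of the table and passed the filter on low counts. RNA came from the colon of ICR mice, an outbred strain, given 1 of 3 treatments for 44 days. Controls received saline (NC), others a jujube kernel preparation, the compound Suanzaoren capsule (FFZR), and others a fermented green tea named Jinhua Hecha (JHHCG). Each title adds a C or an X that no label explains, and the libraries are called set C and set X here. That gives 6 groups of 3 libraries: NCC, FFZRC and JHHCGC in set C, and NCX, FFZRX and JHHCGX in set X. The series text gives 3 mice per treatment but there were 6 libraries per treatment, and no label ties a library to an animal, so p-values measure only the spread between libraries, which may be technical. The study as titled concerns sleep, the gut microbiota and glutamatergic synapses. The question asked of these genes was whether colon libraries of the treatments differed in them.

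Tight junctions seal the space between neighbouring epithelial cells and set what passes between them. Membrane proteins such as occludin and the claudins meet across the gap, and cytoplasmic scaffolds tie their tails to actin. Below them, adherens junctions built on E-cadherin give the sheet its strength. In the colon this barrier separates the tissue from the bacteria of the lumen.

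Depth was 59206980 to 76830278 counts per library. Mitochondrially encoded transcripts took 5.48 to 24.88% of counts and were above 12% in NCC_17, FFZRC_24, JHHCGC_48, NCX_134, NCX_147 and JHHCGX_256. The tissue label held in that the 12 epithelium markers summed to 11759 to 29934 CPM (counts scaled to a library of 1000000) and none was at 0, with Krt8, a keratin of simple epithelia, and Muc13, a membrane mucin, as the highest. Smooth muscle markers summed to 2692 to 32949 CPM, led by Myh11 and Des. Lung markers also appeared in colon libraries. They summed to 201 to 231 CPM in NCC, 93 to 262 CPM in JHHCGC and 147.4 to 290.4 CPM in FFZRX, to 2 to 3 CPM in FFZRC, and to 1 to 306 CPM in NCX and 2 to 140.4 CPM in JHHCGX. Col2a1, a cartilage collagen, was above 10 CPM in the 3 NCC libraries, NCX_124 and FFZRX_139. In bulk tissue, fewer cells of a type and less RNA per cell cannot be told apart.

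The 9 genes spanned a wide range of levels. On the deposited FPKM scale, which divides counts by length and library total, Epcam was the highest at 783 ± 119 (SD over 18 libraries) and Tjp1 the lowest at 17.1 ± 3.07. Epcam encodes an adhesion protein of epithelial cells that also stabilises claudins, and its loss in humans causes an intestinal failure of infancy. Cdh1, which encodes E-cadherin, followed at 251 ± 50.4, then F11r, the immunoglobulin-type protein JAM-A, at 100.03 ± 16.2, and Tjp3, the scaffold ZO-3, at 66.8 ± 13.1. Each of these stood above the next in all 18 libraries. Marveld3 (31.7 ± 5.34), Ocln (30.2 ± 4.69) and Cgn (29.1 ± 7.63) could not be ordered, since Marveld3 was above Ocln in 11 of the 18 libraries and Ocln above Cgn in 8. Cgn was above Marveld2, which encodes tricellulin, the protein of contacts between 3 cells, in all 18 libraries. Marveld2 (18.1 ± 2.46) and Tjp1, the scaffold ZO-1, did not separate, with Marveld2 above in 11 of the 18.

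**Figure D1:**
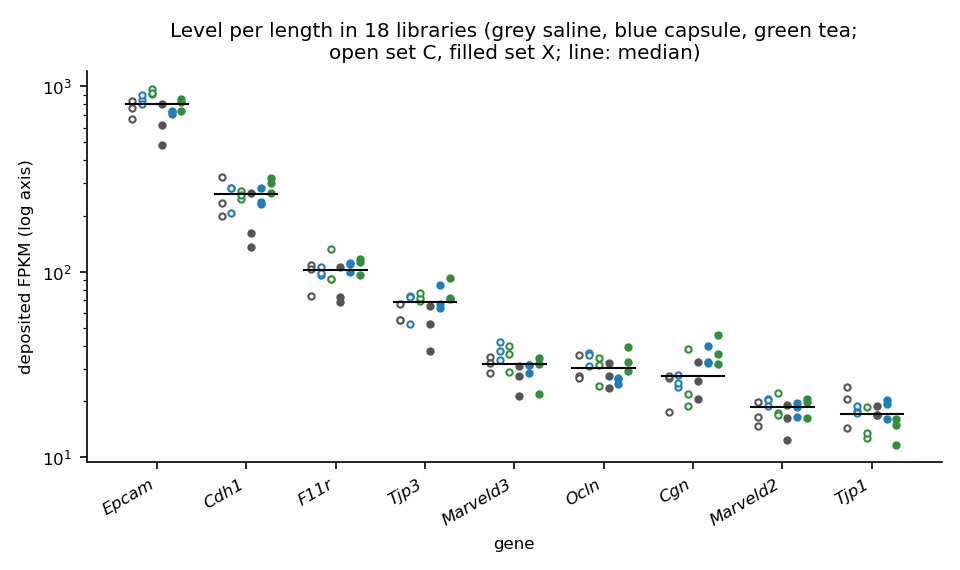
Deposited FPKM of the 9 genes on a log axis, 1 point per library, with grey for saline, blue for capsule and green for tea, open for set C and filled for set X, and a line at the median. Epcam stands above Cdh1, F11r and Tjp3 in every library, while Marveld3, Ocln and Cgn overlap near 30 FPKM.

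In the mouse genome (GRCm38) the genes lie on 7 chromosomes. Tjp1 (ENSMUSG00000030516) spans chromosome 7, 65296165 to 65527696, on the minus strand. Tjp3 (ENSMUSG00000034917) lies on chromosome 10, 81273207 to 81291581, minus strand, and overlaps Apba3 on the other strand. No source used here says if reads were assigned by strand, and Apba3 had 10.4% as many counts as Tjp3. Ocln (ENSMUSG00000021638; 100496507 to 100552718) and Marveld2 (ENSMUSG00000021636; 100595957 to 100616971) are close neighbours on chromosome 13, both on the minus strand. Cgn (ENSMUSG00000068876) is at chromosome 3, 94760069 to 94786492, minus strand, and F11r (ENSMUSG00000038235) at chromosome 1, 171437535 to 171464603, plus strand. Cdh1 (ENSMUSG00000000303; 106603351 to 106670246, plus strand) and Marveld3 (ENSMUSG00000001672; 109947914 to 109962203, minus strand) share chromosome 8. Epcam (ENSMUSG00000045394) is at chromosome 17, 87635979 to 87651106, plus strand.

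Because most of the genes varied together across libraries, their upstream sequences were read from RefSeq (GRCm38.p6), as the 250 bases before each annotated start. Of the 9 genes, 7 had an entry, with 10 windows in all; Cdh1 and Marveld3 had none. Of these windows 4 are shown: Tjp1, whose values went apart from the rest, Tjp3, Cgn and Epcam. Each is written 5′ to 3′ on the gene's own strand with the motif matches in capitals. The Tjp1 window precedes a RefSeq start that lies inside the gene span given above, 65296165 to 65527696, and not the outer end of that span.
Tjp1 (chr7:65371245-65371494, minus strand): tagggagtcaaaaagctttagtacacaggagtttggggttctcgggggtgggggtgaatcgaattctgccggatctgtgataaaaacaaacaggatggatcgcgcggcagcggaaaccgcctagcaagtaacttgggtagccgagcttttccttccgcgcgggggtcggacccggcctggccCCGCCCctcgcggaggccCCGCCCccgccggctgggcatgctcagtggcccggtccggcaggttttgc
Tjp3 (chr10:81291582-81291831, minus strand): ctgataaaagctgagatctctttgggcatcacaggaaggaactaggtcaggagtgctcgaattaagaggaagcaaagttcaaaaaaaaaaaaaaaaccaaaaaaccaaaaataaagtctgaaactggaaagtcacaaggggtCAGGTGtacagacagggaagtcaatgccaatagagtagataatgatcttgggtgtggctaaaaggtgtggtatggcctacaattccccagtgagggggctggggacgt
Cgn (chr3:94786483-94786732, minus strand): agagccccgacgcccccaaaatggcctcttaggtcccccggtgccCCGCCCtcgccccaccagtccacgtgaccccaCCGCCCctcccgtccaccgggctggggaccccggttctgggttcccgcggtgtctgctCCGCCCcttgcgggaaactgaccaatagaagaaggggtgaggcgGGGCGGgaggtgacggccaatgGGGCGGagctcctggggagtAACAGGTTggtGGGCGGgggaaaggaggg
Epcam (chr17:87635729-87635978, plus strand): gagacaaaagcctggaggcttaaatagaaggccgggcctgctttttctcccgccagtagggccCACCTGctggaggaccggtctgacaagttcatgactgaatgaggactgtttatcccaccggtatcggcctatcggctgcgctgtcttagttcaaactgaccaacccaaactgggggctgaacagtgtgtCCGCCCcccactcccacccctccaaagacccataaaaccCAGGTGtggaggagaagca

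The windows were searched on both strands for 5 motifs, and no 2 matches overlapped in the windows shown. The E-box CAGGTG, a sequence that Snail and ZEB repressors bind, was in 5 of the 10 windows (of Tjp3, Ocln, F11r and Epcam), against 17.2% of all 32851 promoters of the table. The GC box GGGCGG, bound by Sp and KLF factors, was in 8 of the 10, from all 7 genes but Tjp3, against 32.7% of all promoters. Cgn held 6 copies of it and the single match to the grainyhead-like motif AACNNGTT, which 3.64% of all promoters held. Both windows of Marveld2, which overlap, held the same match to the TATA box motif TATAAA (12.4% of all promoters). That match lay on the strand opposite to the gene, at -223 and -250 from the respective starts. The HNF4 motif CAAAGTCCA (0.384%) was in none. A match describes the letters in a window and shows neither binding nor regulation.

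Across libraries the 9 genes tended to be high or low together. In JHHCGC_48 all 9 were above their own mean over the 18 libraries, and 7 were among the 3 highest values of their gene. JHHCGX_256 was alike, also with 9 and 7. In NCC_8 none was above its mean and 8 were among the 3 lowest, in NCX_124 none was above its mean and 2 were among the 3 lowest, and in NCX_147 only Tjp1 was above its mean. FFZRC_24 had all 9 above their means and 6 among the 3 highest on the scaled CPM used here (trimmed mean of M-values, TMM). On deposited FPKM, which is not scaled by TMM, it had none among the 3 highest. Its TMM factor was 0.679, the lowest of the 18 libraries, and its mitochondrial share was the highest, so values of FFZRC depend on the scaling. The counts above for the other libraries are on scaled CPM too. NCX_124 had the highest TMM factor, 1.18. On deposited FPKM its Epcam, Cdh1, F11r, Ocln and Marveld2 stood above their means, with Epcam at 799.8 against 783. On that scale 6 genes of JHHCGC_48 and 5 of JHHCGX_256 were among the 3 highest, and 5 of NCC_8 among the 3 lowest.

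**Figure D2:**
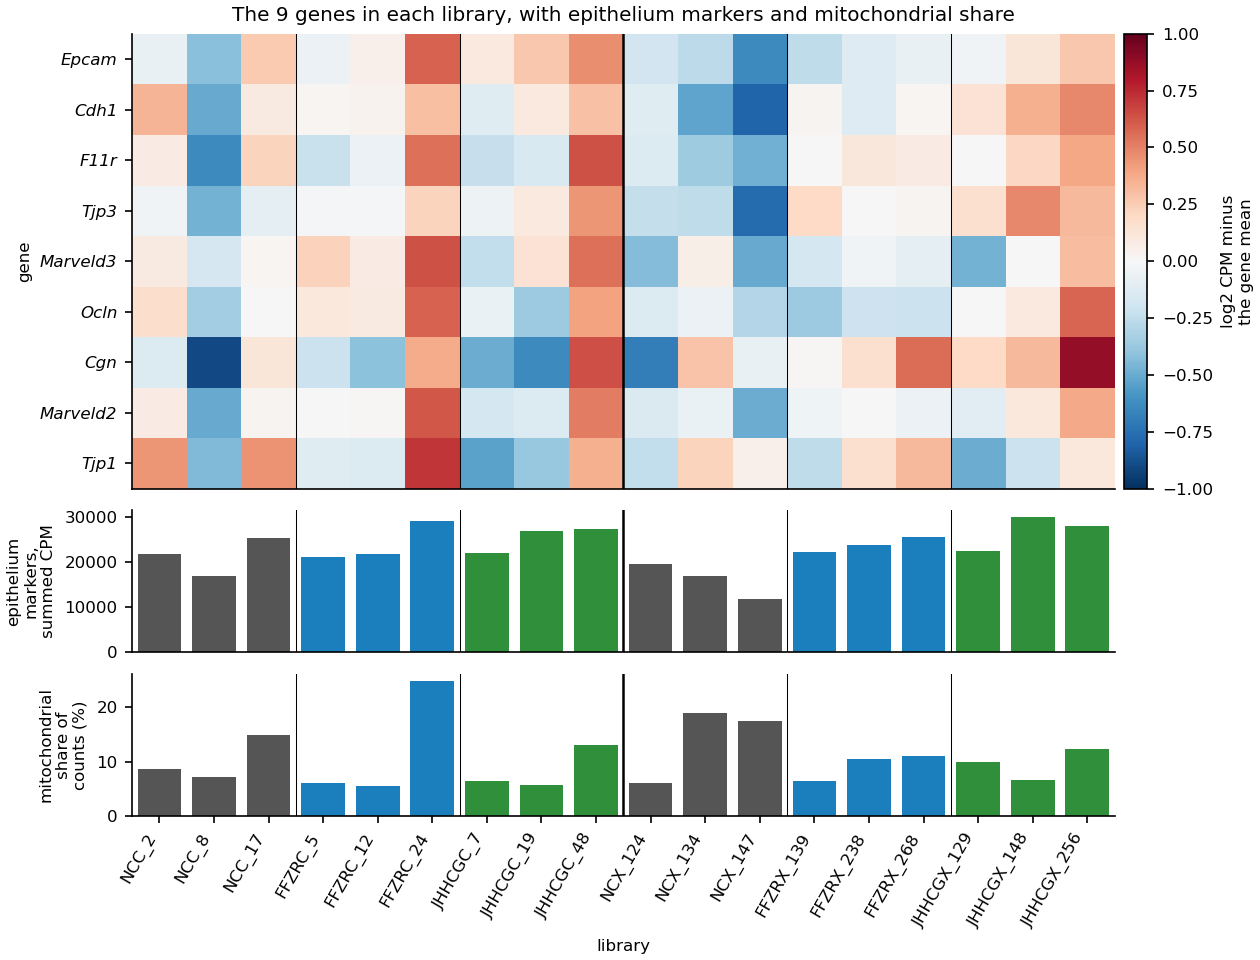
Log2 CPM of each gene minus its mean over the 18 libraries (colour, capped at -1 and 1), above the summed CPM of the 12 epithelium markers and the mitochondrial share of counts, with libraries grouped by set and treatment. On this scale FFZRC_24, JHHCGC_48 and JHHCGX_256 are red in all 9 genes. NCC_8 and NCX_124 are blue in all 9, and NCX_147, lowest in epithelium markers at 11759 CPM, is blue in all genes but Tjp1.

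The Pearson correlation of each gene's log2 CPM with the mean profile of the 9 over the 18 libraries, which share scaling and tissue makeup, was 0.97 for Marveld2, 0.95 for F11r, 0.85 for Ocln, 0.84 for Epcam, 0.82 for Cdh1, 0.81 for Marveld3, 0.80 for Tjp3, 0.76 for Cgn and 0.64 for Tjp1. Each gene is itself part of that mean. Among the other genes most like the mean were Pip5k1b (r = 0.95), a phosphoinositide kinase, Ifnlr1 (0.93), a chain of the interferon lambda receptor, Gpa33 (0.93), an intestinal surface antigen, and Slc44a4 (0.92), a choline transporter-like protein. Nearest to the single genes were Ccdc186 for Tjp1 (0.92), Tmc4 for Tjp3 (0.95), Marveld2 for Ocln (0.87), Sipa1l3 for Cgn (0.94), Dok4 for F11r (0.94), F11r for Marveld2 (0.93), Tapbpl for Marveld3 (0.92), Abhd17c for Cdh1 (0.93) and Nfkbib for Epcam (0.93).

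Tea was compared with saline in set X first, where the differences were largest. With edgeR's quasi-likelihood test and Benjamini-Hochberg adjustment, 0 of the 9 genes passed an adjusted p of 0.05, as did 0% of the 20889 genes tested. Fold changes were positive for 8 of the 9, with a median log2 fold change of 0.47 against -0.06 over all genes tested, of which 46.7% were positive. At an unadjusted p under 0.05 there were 3 (Cdh1, Tjp3 and F11r), where 17.1% of all genes had one. DESeq2 called 4 (Cdh1, Tjp3, F11r and Epcam, all higher), where it called 9.22% of all genes, and limma on FPKM called 0.

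Among the scaffolds, Tjp3 had the smallest p. Its level was 220.2, 218 and 153 CPM in the saline libraries NCX_124, NCX_134 and NCX_147, and 291, 362 and 326 CPM in the tea libraries JHHCGX_129, JHHCGX_148 and JHHCGX_256. The groups did not overlap. The log2 fold change was 0.73 ± 0.19 (SE; edgeR adjusted p = 0.114). Cgn, cingulin, an adaptor between the ZO scaffolds and the actin cortex, stood at 113, 222 and 173 CPM in saline and 209.6, 228 and 336 CPM in tea, and its groups overlapped. Its fold change was 0.61 ± 0.29 on the log2 scale (edgeR adjusted p = 0.33). Tjp1 went the other way at -0.21 ± 0.22, from 119, 165 and 146 CPM in saline to 99.95, 122 and 152 CPM in tea, with overlap.

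Cdh1 differed most among the adhesion genes. It stood at 1105, 835 and 689.6 CPM in saline and 1327, 1533 and 1679 CPM in tea, without overlap. Its log2 fold change was 0.79 ± 0.22 (edgeR adjusted p = 0.137). Epcam stood at 1588, 1518 and 1171 CPM in saline and 1774, 1978 and 2186 CPM in tea, again without overlap, at 0.47 ± 0.21 (edgeR adjusted p = 0.292).

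F11r, among the membrane proteins, had 255.8, 219.7 and 201 CPM in saline and 280.1, 325 and 367 CPM in tea, without overlap. The log2 fold change was 0.52 ± 0.17 (edgeR adjusted p = 0.166). Ocln, occludin, had 123, 129.5 and 110.2 CPM in saline and 135, 145 and 202 CPM in tea, without overlap, at 0.41 ± 0.18 (edgeR adjusted p = 0.293). Marveld2 (0.36 ± 0.18) and Marveld3 (0.25 ± 0.23), relatives of occludin, overlapped between the groups. In all, 5 of the 9 genes had every tea library above every saline library, where 9.54% of all genes tested did. This rests on the scaling. On deposited FPKM Tjp3 alone stayed apart (4.94% of all genes did), and Cdh1, Epcam, F11r and Ocln overlapped.

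**Figure D3:**
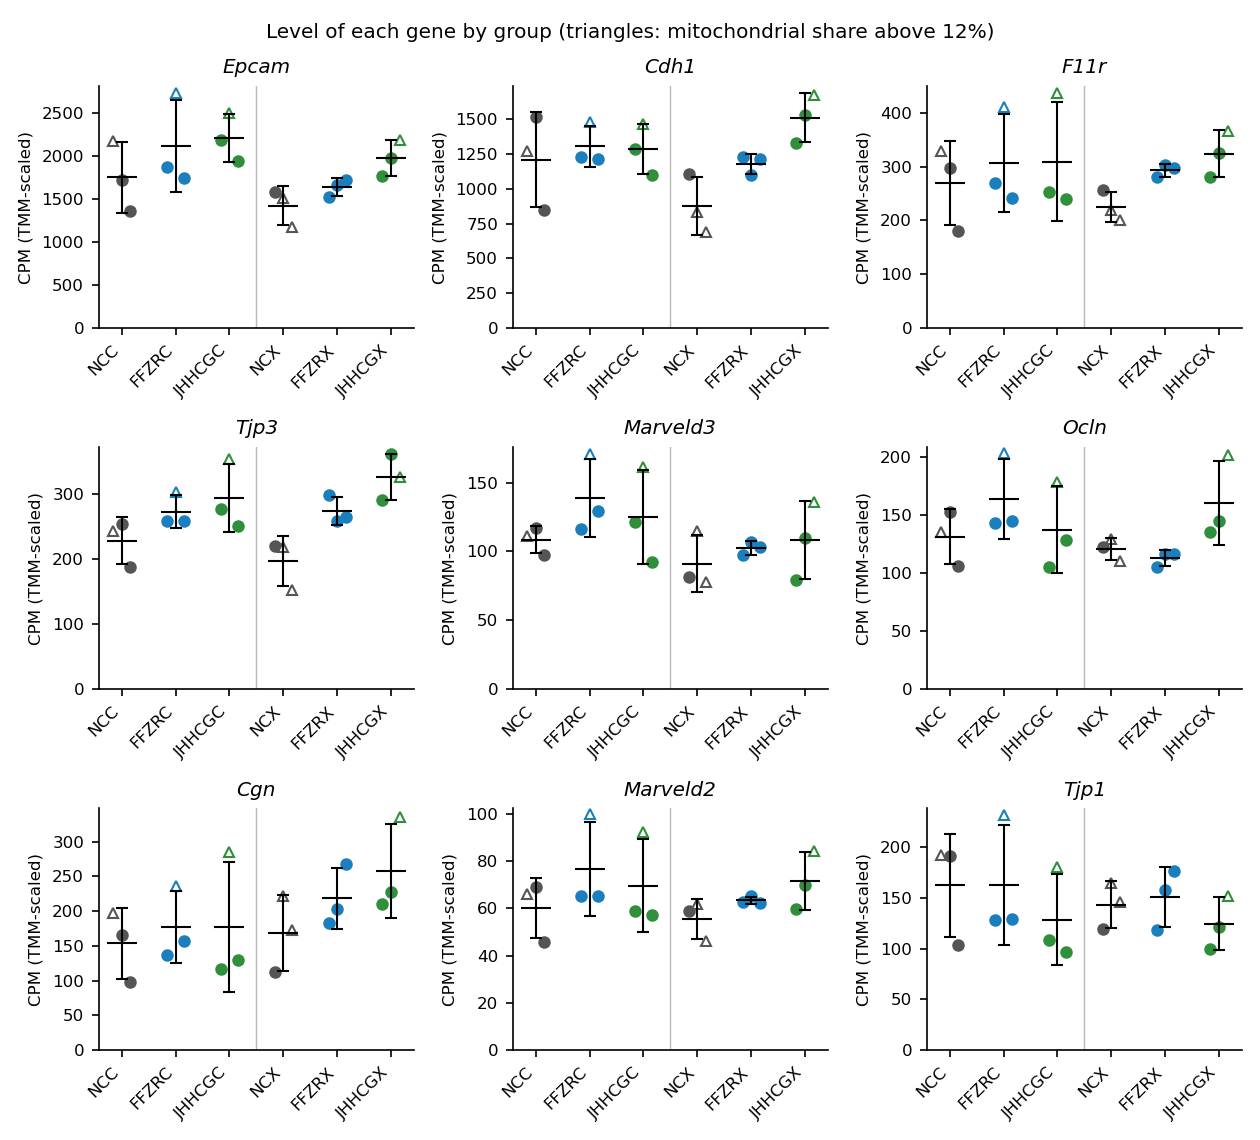
Level of each gene in TMM-scaled CPM by group, 1 point per library, with mean and SD (n = 3) in black and open triangles for libraries with a mitochondrial share above 12%. In set X (right of the line) the 3 tea libraries lie above the 3 saline libraries for Epcam, Cdh1, F11r, Tjp3 and Ocln on this scale, and on deposited FPKM for Tjp3 alone.

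Epithelium markers moved with these genes. In set X they summed to 11759 to 19490 CPM in saline and 22345 to 29934 CPM in tea, and 12 of 12 had positive fold changes with a median of 0.75, though none passed the adjusted threshold. Smooth muscle markers were negative in 8 of 8, with a median of -1.08, and reached 21965 and 32949 CPM in NCX_134 and NCX_147. Both libraries also had a high mitochondrial share. Markers of other tissues were mostly negative as well, namely adipocyte (6 of 6, median -3.29), mesothelium (5 of 5, -2.87) and skeletal muscle (6 of 6, -1.83). So were keratinized epithelium (7 of 8, -1.21), fibroblast (7 of 7, -1.15) and lung markers (7 of 7, -0.87). None of these passed the threshold, and their part in the values of the 9 genes was not tested. Without the high-mitochondrial libraries, which leaves 1 saline library, the log2 fold changes were 0.58 for Tjp3, 0.38 for Cdh1, 0.25 for F11r and 0.97 for Cgn. With the mean of the epithelium markers as a covariate they were 0.26, 0.18, 0.05 and 0.34, Tjp1 was at -0.63, and those of Ocln, Epcam, Marveld2 and Marveld3 were -0.05, -0.10, -0.18 and -0.40. Without NCX_124, Cdh1 passed the threshold at 0.9996 on the log2 scale (edgeR adjusted p = 0.0499, range over all alternatives 0.0028 to 1.0). That fit left NCX_134 and NCX_147 as the saline group. Their epithelium markers summed to 16811 and 11759 CPM, the lowest of set X, and their mitochondrial shares were 18.9 and 17.4%.

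In set C, tea and saline libraries overlapped in CPM for all 9 genes. None passed the threshold with edgeR, as with 0% of the 20964 genes tested, and 0 of 9 had an unadjusted p under 0.05, against 3.19% of all genes. DESeq2 and limma also called 0. The signs were as in set X, 8 positive and Tjp1 negative, and the median was 0.23 against 0.01 over all genes. None of the 9 had every tea library above every saline library in CPM, as 3.31% of all genes did. On deposited FPKM Tjp3 and Epcam did, as did 2.12% of all genes. Tjp3 stood at 254, 187 and 244 CPM in NCC_2, NCC_8 and NCC_17 and at 252, 278 and 354 CPM in JHHCGC_7, JHHCGC_19 and JHHCGC_48 (0.39 ± 0.21; edgeR adjusted p = 0.9999). Its fold change was 0.25 to 0.50 when any 1 library was left out. Epcam was next at 0.36 ± 0.30, from 1755 ± 412 to 2211 ± 281 CPM. Cdh1 was 1212 ± 339 CPM in saline and 1287 ± 182 CPM in tea (0.11 ± 0.27). Tjp1 stood at 163 ± 50.8 CPM in saline and 128.6 ± 45.1 CPM in tea (-0.31 ± 0.36). Epithelium markers were positive in 11 of 12 with a median of 0.32, smooth muscle markers in 8 of 8 with a median of 0.35, and none passed. Cartilage markers were negative in 6 of 6, adipocyte markers in 6 of 6 (median -2.68) and skeletal muscle markers in 6 of 6 (median -3.54), also with none past the threshold, and lung sums overlapped between the groups. Their part in the values of the 9 genes was not tested.

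The difference between the tea effects of the sets was tested in 1 fit of all 18 libraries. No gene passed with edgeR, nor did any of the 22380 genes (0%), and 0 of the 9 had an unadjusted p under 0.05, against 6.01% of all genes. DESeq2 and limma called 0. Cdh1 came nearest, with a tea effect larger in set X by 0.70 ± 0.34 on the log2 scale (edgeR adjusted p = 0.827). The larger fold changes of set X are therefore not shown to differ from those of set C.

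Averaged over both sets, tea gave log2 fold changes against saline from -0.27 ± 0.22 for Tjp1 to 0.55 ± 0.14 for Tjp3 (edgeR adjusted p = 0.074). None of the 9 passed with edgeR, where 0.505% of all genes did. Cdh1 (0.44 ± 0.17), Tjp3 and Epcam (0.40 ± 0.17) had an unadjusted p under 0.05, as did 16% of all genes. DESeq2 called Tjp3 alone among the 9 and 6.21% of all genes, and limma called none of the 9. Cgn (0.41 ± 0.26), F11r (0.36 ± 0.19), Marveld2 (0.28 ± 0.17), Ocln (0.24 ± 0.16) and Marveld3 (0.23 ± 0.17) were positive as well. The median of the 9 was 0.36, against -0.04 over all genes. With the epithelium covariate Tjp1 was at -0.89 (edgeR adjusted p = 0.20) and Tjp3 at 0.25 (edgeR adjusted p = 0.359). Epithelium markers were positive in 12 of 12 in this comparison, with a median of 0.49 and none past the threshold. Markers of other tissues were mostly negative, namely adipocyte (6 of 6, median -2.98), skeletal muscle (6 of 6, -2.71), cartilage (6 of 6, -7.54), mesothelium (5 of 5, -1.56), keratinized epithelium (7 of 8, -1.31) and lung markers (7 of 7, -0.84). Of these, 1 cartilage and 1 keratinized epithelium marker passed the threshold. Their part in the values of the 9 genes was not tested.

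For the capsule in set C all 9 fold changes were positive, from 0.03 ± 0.36 for Tjp1 to 0.38 ± 0.24 for Marveld3, with a median of 0.28. None passed with edgeR, where 0.11% of all genes did, and none had an unadjusted p under 0.05, against 5.75% of all genes. DESeq2 and limma called 0. Only Tjp3 had every capsule library (259, 258 and 303 CPM in FFZRC_5, FFZRC_12 and FFZRC_24) above every saline library, as 4.25% of all genes did. On deposited FPKM it did not, since FFZRC_24 was at 52.2 FPKM, below all 3 saline libraries, and none of the 9 was apart, against 1.32% of all genes. In CPM, FFZRC_24 held the highest value of its group for all 9 genes, while on deposited FPKM it did so for Tjp1 alone. Without it the edgeR log2 fold changes of Tjp1, Cgn, F11r and Cdh1 turned to -0.36, -0.09, -0.10 and -0.01. The same 4 genes turned to -0.23, -0.04, -0.03 and -0.09 without NCC_8. Markers of other tissues moved in this comparison. Lung markers were negative in 7 of 7 (4 passed), cartilage in 6 of 6 (4 passed), adipocyte in 6 of 6 (median -4.80, 1 passed), skeletal muscle in 6 of 6 (median -4.56, 1 passed) and keratinized epithelium markers in 7 of 8 (median -3.45, 1 passed). Epithelium markers were positive in 9 of 12 with a median of 0.22 and none passed. Their part in the values of the 9 genes was not tested.

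In set X the capsule gave 8 positive fold changes, with a median of 0.20, and none passed with edgeR (0% of all genes did). Tjp3 and F11r had an unadjusted p under 0.05, as did 9.64% of all genes, and DESeq2 and limma called 0. Tjp3 stood at 298, 259 and 265 CPM in FFZRX_139, FFZRX_238 and FFZRX_268, above the saline values given above (0.48 ± 0.19; edgeR adjusted p = 0.517). F11r stood at 280.1, 303 and 297 CPM, also above saline (0.38 ± 0.17; edgeR adjusted p = 0.517). With Marveld2 (62.3 to 65.2 against 46.1 to 62.1 CPM) 3 genes had every capsule library above every saline library, as 6.85% of all genes did. On deposited FPKM none of the 9 did, against 5.31% of all genes. Cdh1 was 1179 ± 70.9 CPM against 876 ± 211 CPM in saline (0.43 ± 0.22), with overlap, and Ocln was the negative one at -0.10 ± 0.18. Epithelium markers were positive here too, in 12 of 12 with a median of 0.50, and smooth muscle markers negative in 8 of 8. Keratinized epithelium markers were positive in 7 of 8 (median 2.41), skeletal muscle in 5 of 6 (2.23) and lung markers in 7 of 7 (1.48). Mesothelium markers were negative in 5 of 5 (median -3.88) and fibroblast markers in 7 of 7 (-0.88). None of these markers passed the threshold, and their part in the values of the 9 genes was not tested. Averaged over both sets none of the 9 passed with edgeR (0.00447% of all genes did), and Tjp3 (0.37 ± 0.14; edgeR adjusted p = 0.492) had an unadjusted p under 0.05, as did 9.4% of all genes. DESeq2 and limma called 0 there. The tea and capsule comparisons share their saline libraries, so their likeness is not independent.

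**Figure D4:**
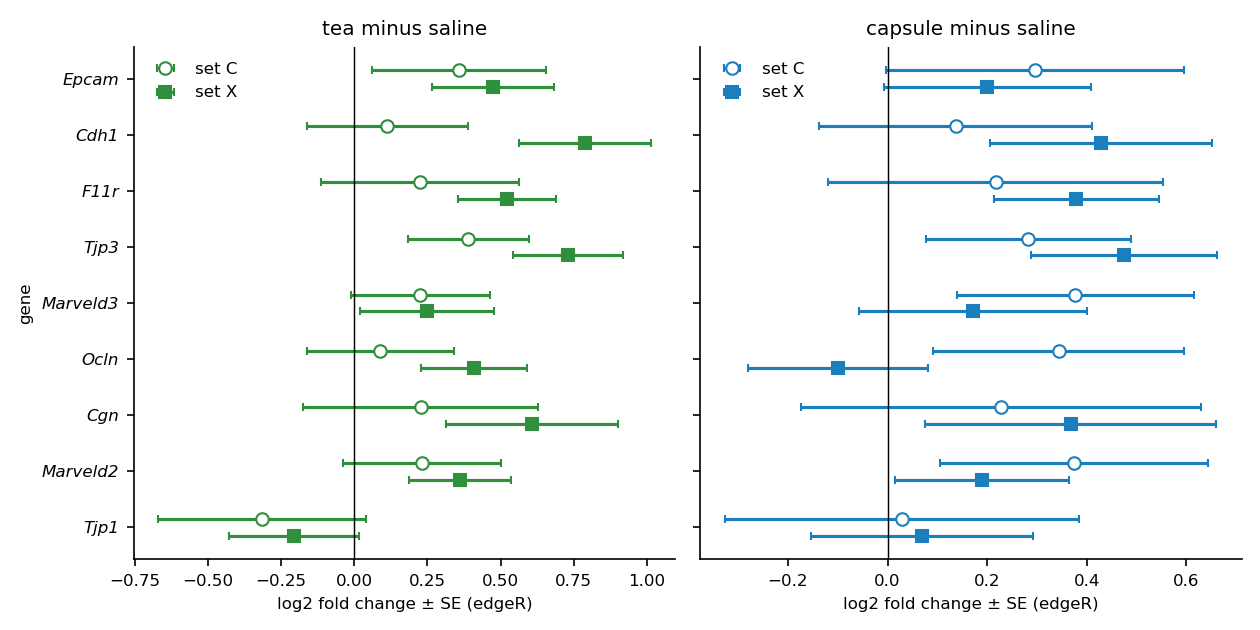
Log2 fold change against saline with its standard error for tea (left) and capsule (right), open circles for set C and filled squares for set X; the horizontal scales differ. For tea, Tjp1 is negative in both sets (-0.31 and -0.21) and the other 8 genes are positive.

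Tea was also set against the capsule directly. In set C 3 of 9 fold changes were positive, with a median of -0.02, and none passed with edgeR, where 0.0143% of all genes did. None had an unadjusted p under 0.05, against 5.22% of all genes. In set X 8 were positive with a median of 0.24, and none passed (0% of all genes did). Ocln had the 1 unadjusted p under 0.05, as did 5.91% of all genes. It stood at 105, 117 and 117 CPM in the capsule libraries, below the 135, 145 and 202 CPM of tea (0.51 ± 0.18; edgeR adjusted p = 0.691). DESeq2 and limma called 0 in both sets. Marker lists moved here too. In set C lung markers were positive in 7 of 7 (median 9.65, 3 passed) and epithelium markers in 8 of 12 (0.08, none passed). In set X epithelium markers were positive in 10 of 12 (median 0.22) and smooth muscle in 8 of 8 (0.46). Adipocyte (6 of 6, -3.34), skeletal muscle (6 of 6, -3.64), keratinized epithelium (7 of 8, -2.85) and lung markers (7 of 7, -2.41) were negative there, and none passed. Their part in the values of the 9 genes was not tested.

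Neither the capsule effect nor the level as such was shown to differ between the sets for any of the 9 genes. For the capsule effect, 0.0134% of all genes passed with edgeR and 6.73% had an unadjusted p under 0.05, against 0 of the 9 for both. For set X against set C over all treatments, 0.0402% of all genes passed and 7.15% had an unadjusted p under 0.05. Marveld3 was the 1 of the 9 with such a p, lower in set X by 0.30 ± 0.14 (-0.30 on the log2 scale; edgeR adjusted p = 0.698). DESeq2 and limma called 0 of the 9 in either.

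Tjp1 and the other genes were then compared within each library, as ratios of counts, which library scaling cannot alter. This was chosen after the values had been seen, and is given as a description without a test. Among the 36 pairs of the 9 genes, 6 had ratios that did not overlap between tea and saline in the same direction in both sets. All 6 were pairs of Tjp1 (with Tjp3, Cdh1, Epcam, F11r, Cgn and Marveld2), with Tjp1 relatively lower in tea. By the same rule the ratio of Tjp1 was lower in tea for 423 of 22379 other genes tested (1.89%). For capsule and saline no pair of the 9 was apart in the same direction in both sets, and over all genes the ratio of Tjp1 was lower for 0.179% and higher for 0.661%.

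The ratio of Tjp1 to Tjp3 shows this in each library. It was 0.753, 0.555 and 0.789 in NCC and 0.386, 0.391 and 0.510 in JHHCGC. In set X it was 0.541, 0.756 and 0.958 in NCX and 0.343, 0.336 and 0.466 in JHHCGX. All 6 tea libraries lay below all 6 saline libraries. The group means were 0.699 ± 0.126 and 0.429 ± 0.0705 for saline and tea in set C, and 0.752 ± 0.208 and 0.381 ± 0.0729 in set X (SD, n = 3). The capsule libraries lay between, at 0.587 ± 0.153 in FFZRC and 0.557 ± 0.142 in FFZRX, and overlapped both. On the log2 scale tea lay below saline by -0.70 in set C and -0.96 in set X, and by -0.74 and -0.67 without the high-mitochondrial libraries. Fibroblast markers, whose cells also use Tjp1, were negative in 7 of 7 in both sets (medians -0.62 and -1.15). Endothelium markers were negative in 5 of 6 in set C and 3 of 6 in set X (medians -0.35 and -0.14). Smooth muscle markers were positive in 8 of 8 in set C and negative in 8 of 8 in set X (medians 0.35 and -1.08). The part of these tissues in the ratio was not tested.

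**Figure D5:**
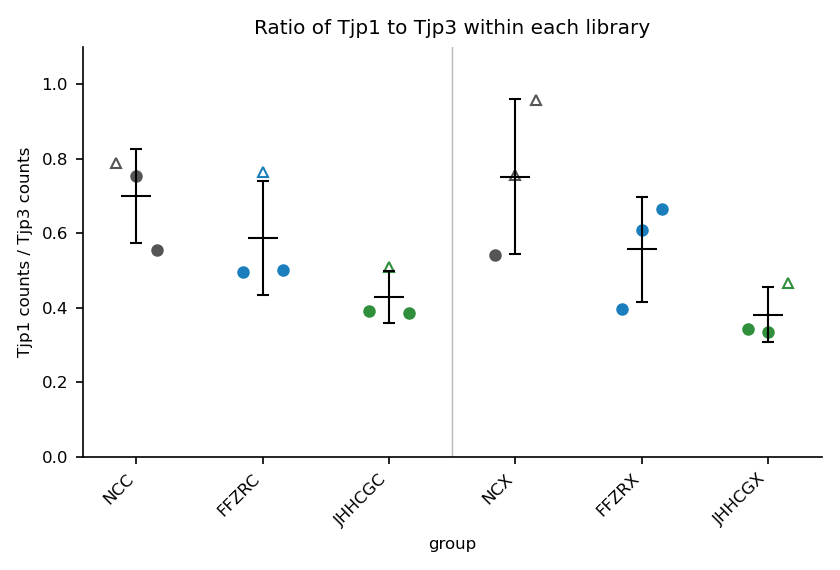
Counts of Tjp1 divided by counts of Tjp3 in each library by group, with mean and SD (n = 3) in black and open triangles for libraries with a mitochondrial share above 12%. The highest tea ratios are 0.510 in set C and 0.466 in set X, below the lowest saline ratios of 0.555 and 0.541.

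Other genes of these pathways were followed as 7 lists. Of their 87 genes tested, Zeb2 was the 1 past the edgeR threshold, for tea averaged over both sets, where 0.505% of all genes passed; in the other comparisons none of the 87 passed. It encodes a zinc finger repressor of the E-cadherin gene and is also used in macrophages, neurons and fibroblasts. It stood at 14.02 to 16.1 CPM in NCC and 6.91 to 10.2 CPM in JHHCGC, and at 14.45 to 22.7 CPM in NCX and 5.19 to 7.65 CPM in JHHCGX, without overlap. It was lower in tea averaged over both sets, with a log2 fold change of -1.16 ± 0.16 (edgeR adjusted p = 0.0316). Leaving out single libraries gave -1.27 to -1.05 with an adjusted p of 0.0208 to 0.0859. It was above 0.05 without any 1 of NCC_2, NCC_8, NCC_17, NCX_147, JHHCGC_7, JHHCGC_19, JHHCGX_129, JHHCGX_148 or JHHCGX_256. Without the high-mitochondrial libraries it was at -0.86 (edgeR adjusted p = 0.183) and with the epithelium covariate at -0.98 (edgeR adjusted p = 0.20). With no filter the edgeR adjusted p was 0.0506. With limma it was at -0.41 (adjusted p = 0.0667) and -1.02 (adjusted p = 0.072) at pseudocounts of 1 and 0.1 FPKM, and DESeq2 called it (adjusted p = 6.63e-09). Fibroblast markers (7 of 7 negative, median -0.90) and markers of neurons and glia (7 of 7 negative, median -0.62) moved with it, and immune markers did not (6 of 7 positive, median 0.54). Their part was not tested. All 6 repressors of the list were negative in that comparison, with a median of -0.87, and Zeb2 alone passed. Snai2 stood at -2.0 ± 0.45 in set X (edgeR adjusted p = 0.0892), from mean levels of only 3.096 CPM in NCX and 0.773 CPM in JHHCGX. Twist1 and Twist2, also on the list, were low too. In NCC, JHHCGC, NCX and JHHCGX the means were 2.401, 1.64, 3.103 and 2.12 CPM for Twist1. For Twist2 they were 1.27, 0.316, 0.401 and 0.4705 CPM. Zeb1 was higher, at 24.1, 18.4, 46.3 and 18.6 CPM. The negative signs of Snai2, Twist1 and Twist2 thus rest on few counts.

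In the other lists 0 genes passed in either direction, so their values are given as levels of difference only. Of 19 other scaffolds and polarity proteins, 9 were positive for tea in set X, with a median of -0.02. Micall2, which links junction traffic to actin, was at 1.73 ± 0.31 (10.9 ± 3.93 CPM in saline and 36.2 ± 7.67 CPM in tea; edgeR adjusted p = 0.0664), and the polarity protein Pard6b at 1.35 ± 0.28 (edgeR adjusted p = 0.0807). Micall2 stood at 1.55 ± 0.31 for the capsule in set X too (edgeR adjusted p = 0.517). Of 14 catenin and desmosome genes 9 were positive for tea in set X, median 0.26, with plakoglobin, Jup, at 0.95 ± 0.18 (190.7 ± 7.17 and 368 ± 20.4 CPM; edgeR adjusted p = 0.0701) and plakophilin 3, Pkp3, at 0.93 ± 0.18 (edgeR adjusted p = 0.0742).

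All 8 claudins were positive for tea in set X, with a median of 0.87. Cldn7, the partner that EpCAM stabilises, was at 0.67 ± 0.23 (570.1 ± 136 and 906 ± 119 CPM; edgeR adjusted p = 0.195). Of 16 other junction membrane proteins 7 were positive, median -0.09, with Nectin2, an immunoglobulin-type protein of adherens junctions, at 1.06 ± 0.23 (edgeR adjusted p = 0.0887). Of 16 epithelial transcription and splicing factors 14 were positive, median 0.57, with the intestinal homeobox gene Cdx2 at 1.49 ± 0.38 (edgeR adjusted p = 0.114). Of 8 proteases and inhibitors that act on EpCAM or E-cadherin 5 were positive, median 0.58. Adam10, the sheddase of E-cadherin, was at -0.65 ± 0.16 (95.7 ± 2.26 and 61.2 ± 2.76 CPM; edgeR adjusted p = 0.102).

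For tea in set C the list medians ran from -0.15 for the other junction membrane proteins to 0.13 for the claudins, apart from the repressors at -0.45. For the capsule in set X they were 0.0038 for the scaffolds and polarity proteins, -0.02 for the other junction membrane proteins, 0.37 for catenins and desmosome genes, 0.33 for claudins, 0.57 for the epithelial factors, -0.47 for the repressors and 0.45 for the proteases and inhibitors.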

How the data were processed

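RNA-seq of mouse colon gave 18 libraries, made with oligo(dT) beads from 5 µg of total RNA per the labels' protocols. The authors deposited 1 gene table with raw read counts and FPKM (counts per gene length and library total). The submitters' processing notes name cutadapt 1.9, HISAT2 2.0.4, StringTie 1.3.4d and edgeR. They list a human build, while the table's gene IDs and coordinates match mouse GRCm38. Depth per library is given with the results.

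Deposited counts were tested with edgeR 4.0.16 in R 4.3.3 (TMM, filterByExpr minimum count 10, quasi-likelihood test, Benjamini-Hochberg adjusted p of 0.05) across all genes. Each set was fitted alone, and averages and differences between sets came from 1 fit of 18 libraries. SE was the absolute log2 fold change divided by the root of F. Alternatives were DESeq2 1.42.0, limma 3.58.1 on log2(FPKM + 1) and log2(FPKM + 0.1) at a mean FPKM of at least 0.5, other size factors, no filter, an epithelium marker covariate, and left-out libraries. The 9 genes, the lists and the comparisons were chosen with earlier results of these data known. From each pathway list the 2 genes with the smallest p per comparison could be named, and the 5 genes most correlated with the mean profile. Some genes that this rule names are not reported here.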

Additional observations from a re-analysis of the deposited data

How the results depend on the processing

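Not every log2 fold change was followed. All 9 genes were followed for each treatment against saline within each set and for tea averaged over both sets. From 4 other comparisons only the gene with the smallest edgeR p was followed. These were Ocln (tea against capsule, set X), Tjp3 (capsule averaged), Cdh1 (tea effect between sets) and Marveld3 (set X against set C). Of these 49 log2 fold changes, 26 kept their direction in every alternative run. All 49 did so with RLE size factors, with no filter and with DESeq2. DESeq2 called 4 of the 9 for tea in set X and 1 averaged over both sets, where edgeR called 0. Leaving out single libraries gave 0 to 1 calls for tea in set X and 0 in each other comparison.

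With the epithelium covariate 20 reversed. For tea in set C these were Ocln (-0.12), Cgn (-0.20), F11r (-0.14), Marveld2 (-0.054) and Cdh1 (-0.066); in set X Ocln (-0.046), Marveld2 (-0.18), Marveld3 (-0.40) and Epcam (-0.10); averaged Ocln (-0.13), Cgn (-0.21), F11r (-0.20), Marveld2 (-0.18), Marveld3 (-0.18) and Epcam (-0.033). For the capsule they were Tjp1 in set C (-0.18), and Tjp1 (-0.24), Marveld2 (-0.18), Marveld3 (-0.28) and Epcam (-0.20) in set X. Without the high-mitochondrial libraries Ocln (-0.11) and Cgn (-0.063) reversed for tea in set C and Tjp1 (-0.21) for the capsule in set C. The ratio of Tjp1 to Tjp3 for the capsule in set X, -0.43 on the log2 scale, became 0.00596. With limma, Ocln for tea in set C (-0.0025 and -0.0027 at the pseudocounts 1 and 0.1) and Tjp1 for the capsule in set C (-0.10 at both) reversed. The cause was not tested.

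Leaving out single libraries reversed, for tea in set C, Ocln (-0.14 to 0.26), Cgn (-0.29 to 0.47), F11r (-0.10 to 0.41), Marveld2 (-0.018 to 0.36) and Cdh1 (-0.077 to 0.30). For the capsule it reversed Tjp1 (-0.36 to 0.16), Cgn (-0.088 to 0.43), F11r (-0.10 to 0.36) and Cdh1 (-0.094 to 0.32) in set C and Tjp1 (-0.10 to 0.23) in set X. A lone library left in a group is assumed to vary like the other groups.

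No paired analysis was possible because the groups share no replicate numbers. Leaving out the Col2a1 libraries was not run for set C or the joint fit, since it removes all of NCC. The ratio, the counts at unadjusted p, the overlap on FPKM and the alternatives for Zeb2 were chosen after seeing the data. Each of the 9 genes had at least 3127 counts in every library.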
